A study of Mus musculus with 8 samples.

Results

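The 10 genes described here encode the main enzymes that clear superoxide and peroxides: the 6 peroxiredoxins Prdx1 to Prdx6, the superoxide dismutases Sod1 and Sod2, and the glutathione peroxidases Gpx1 and Gpx4. They were chosen by name from the 22430 genes of the count table, and all 10 were among the 16730 genes with enough counts to test. RNA was measured by poly(A) sequencing in the brains of C57Bl/6JRj mice of 2 ages, with 4 young adult animals (6 months old, 6m) and 4 aged ones (24 months old, 24m). All 8 animals were males with no treatment named in the labels. Sample titles name the tissue as whole brain, while the protocol and the study's methods say that hemispheres were dissected. The question asked of these genes was whether their transcripts differ between the young and the aged brain.

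Superoxide dismutases turn superoxide into hydrogen peroxide, Sod1 in the cytosol with copper and zinc and Sod2 in the mitochondrial matrix with manganese. Peroxiredoxins and glutathione peroxidases then reduce hydrogen peroxide and lipid peroxides, the former mostly with electrons from thioredoxin and the latter with electrons from glutathione. The brain uses much oxygen and holds many unsaturated lipids, and Gpx4, which reduces peroxides within membranes, protects neurons from ferroptosis, a death driven by lipid peroxidation.

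The coding sequence around the residue that attacks the peroxide is shown first, because it divides the family members by chemistry. Each line gives 27 bases of the spliced coding strand, 5′ to 3′, with the codon of the catalytic residue in capitals. That codon is for the peroxidatic cysteine in the peroxiredoxins and is a TGA, read as selenocysteine, in both glutathione peroxidases. The sequences were read from the GRCm39 assembly.

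Prdx1: tttacttttgtgTGTcccacggagatc
Prdx2: ttcacttttgttTGCcccacggagatc
Prdx3: ttcacatttgtgTGTcctacagaaatt
Prdx4: ttcacctttgtgTGTccaactgaaatc
Prdx5: tttacacctggcTGTtctaagacccac
Prdx6: tttaccccagtgTGCaccacagaactt
Gpx1: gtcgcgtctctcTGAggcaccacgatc
Gpx4: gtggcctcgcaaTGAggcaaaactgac

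The windows of Prdx1 and Prdx2 shared 24 of 27 bases, and those of Prdx3 and Prdx4 shared 23. Prdx5, an atypical peroxiredoxin, shared 12 to 14 bases with the other 5 peroxiredoxins, and Prdx6, which has a single catalytic cysteine, shared 13 to 18. The windows of Gpx1 and Gpx4 shared 17 of 27 bases. Over the whole coding sequence, Prdx1 and Prdx2 were 69.9% identical, Sod1 and Sod2 64.1%, and Gpx1 and Gpx4 62.2%.

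All of these windows are exonic and coding. In GRCm39 the window of Prdx1 lies at chr4:116549008-116549034 on the forward strand (codon 52, exon 3), that of Prdx2 at chr8:85697100-85697126 on the forward strand (codon 51, exon 3), and that of Prdx6 at chr1:161074926-161074952 on the reverse strand (codon 47, exon 2). The windows of Gpx1, at chr9:108216638-108216664 (codon 47, exon 1), and of Gpx4, at chr10:79890559-79890585 (codon 73, exon 3), are both on the forward strand. An intron interrupts the window in the other three peroxiredoxins, which are all on the reverse strand. These windows span chr19:60858553-60859859 in Prdx3 (codon 109), chrX:154115444-154117835 in Prdx4 (codon 127) and chr19:6885036-6885370 in Prdx5 (codon 96). The dismutases use metal ions in place of such a residue. Sod1 lies at chr16:90017408-90027657 and Sod2 at chr17:13224095-13259591, both on the forward strand.

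Library totals were 63460940 to 103462414 counts, the largest in 24m replicate 1, and each of the 10 genes had between 1821 and 101727 counts in every library. For markers of the tissue, 8 neuronal genes summed to 3599 to 4005 CPM (counts per 1e+06 counts of the library, scaled by TMM factors) at 6m and 4065 to 4226 CPM at 24m, and no gene of the 7 marker lists was at 0 in any library. The 24m replicate 1 stood apart from the other 24m libraries. Its 10 enzyme genes summed to 3573 CPM, against 1946 to 2373 CPM in the other three aged libraries and 4016 to 4776 CPM at 6m. Fold changes without this library are given beside those of the enzymes. Mitochondrially encoded genes took 6.07 ± 0.56% of counts at 6m and 3.33 ± 0.24% at 24m (SD, n = 4 each), and that difference was present in 24m replicate 1 (3.26%) as in the others.

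Transcripts of 6 of the 10 enzymes fell with age: Sod1, Gpx4, Prdx5, Prdx4, Gpx1 and Prdx2. Over all genes tested, 18.3% were called lower at 24m and 25.3% higher, where a call needed both an adjusted p no higher than 0.05 in edgeR and a log2 change no smaller than 0.58 in size. All 10 fitted changes were below 0, between -1.02 and -0.16, with a median of -0.70 against -0.0034 over all genes. Of 22 alternative analyses, Prdx3 was above 0 in 5 and Prdx6 in 2. With the trend over coding length removed, 3 of the 10 were called lower, against 16.6% of all genes. Sod2 and Prdx1 also passed the adjusted p but with smaller changes than the threshold, so 8 of 10 were lower at any size, against 29.9% of all genes. Prdx3 and Prdx6 did not pass. In 7 of the 10, the 6 called genes and Sod2, every aged library lay below every young one, a pattern found in 26.8% of all genes tested. The opposite pattern, every aged library above every young one, was found in 28.4% of all genes and in none of the 10. Because these are bulk samples, fewer cells of a type and less RNA per cell cannot be told apart.

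**Figure D1:**
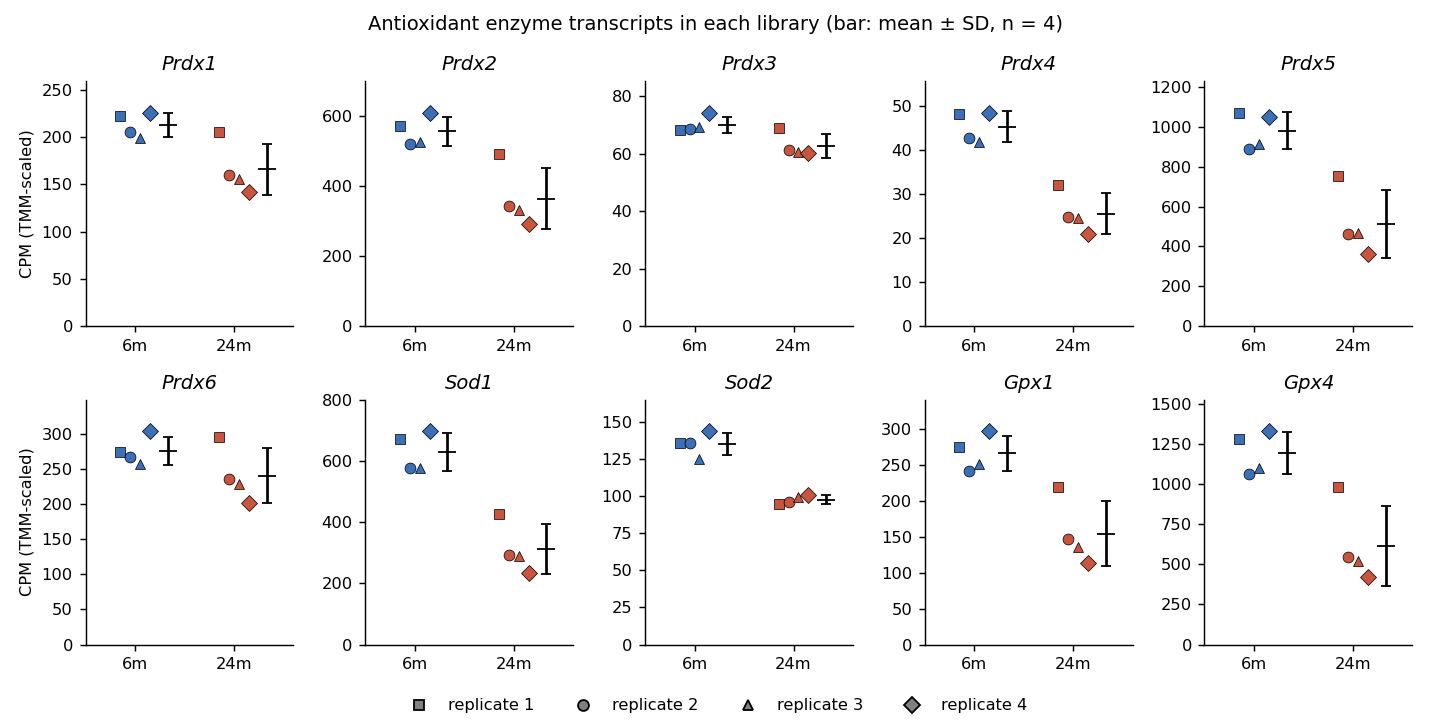
Level of each enzyme transcript in CPM (vertical axes, starting at 0) in the 4 libraries of 6m (blue) and the 4 of 24m (red), with the mean and SD as a bar beside each group and the symbol shape giving the replicate number. The ages overlap only for Prdx1, Prdx3 and Prdx6, and 24m replicate 1 is the highest aged library for 9 of the 10 genes, Sod2 being the exception.

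Sod1, the cytosolic dismutase, had the largest fall with all libraries and TMM factors, but not without 24m replicate 1 (Gpx4), with quantile normalization (Prdx4) or with the coding length trend removed (Prdx4, Prdx5 and Gpx4). Its level was 673, 579.9, 578 and 698 CPM in the 6m libraries and 429, 295, 291 and 235 CPM in the 24m libraries. The ages did not overlap, and the mean at 24m was 49.4% of that at 6m (632 ± 62.3 against 312 ± 82.6 CPM, SD, n = 4 each). The log2 fold change was -1.02 ± 0.17 (SE, adjusted p = 0.000782 by edgeR), and it was -1.19 without 24m replicate 1. With the coding length trend removed it was -0.52 (adjusted p = 0.00184 by edgeR), under the fold threshold. Ccs, the chaperone that loads copper into Sod1, fell too, from 63.6 to 73.9 CPM at 6m to 30.7 to 50.3 CPM at 24m (log2 fold change -0.80 ± 0.14, adjusted p = 0.0011 by edgeR).

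Sod2, the mitochondrial dismutase, had 135, 136, 125 and 143 CPM at 6m and 94.3, 96.2, 99.3 and 100.5 CPM at 24m. The aged libraries lay all below the young ones and close to each other, and 24m replicate 1 was the lowest of them. The mean was 72.3% of the young mean, a log2 fold change of -0.47 ± 0.07 (adjusted p = 0.000513 by edgeR) that stayed under the fold threshold. It was -0.43 without 24m replicate 1. It passed the fold threshold with the GC trend removed (-0.65), the exonic length trend removed (-0.94) or both with the replicate block (-0.98), and lost its p with the coding length trend removed (-0.17, adjusted p = 0.11 by edgeR). The Sod2 to Sod1 count ratio within a library was 0.201, 0.234, 0.216 and 0.205 at 6m and 0.22, 0.326, 0.342 and 0.428 at 24m. The ratio was 0.58 higher on the log2 scale at 24m, but 24m replicate 1 lay within the young range (exact permutation p = 0.0571, two-sided, and 0.0685 after adjustment over 6 ratios, n = 4 per age). Without that library the difference was 0.76.

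Gpx4, the glutathione peroxidase of membrane lipids, was the most abundant of the 10 transcripts. It had 1284, 1065, 1098 and 1328 CPM at 6m and 982, 547, 518 and 419.8 CPM at 24m. The aged libraries were all lower, and 24m replicate 1 stood much nearer to the young ones than the rest. The mean was 1194 ± 132 CPM at 6m and 617 ± 249.6 CPM at 24m, a fall with a log2 value of -0.95 ± 0.24 (adjusted p = 0.00602 by edgeR). As a share of the young mean, 24m replicate 1 had 82.3% and the other three aged libraries had a mean of 41.5%. Without it the log2 fold change was -1.25 (adjusted p = 4.22e-06 by edgeR). The call was lost with the exonic length trend removed (-0.42), also with GC and the replicate block (-0.46).

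Gpx1, the soluble glutathione peroxidase of cytosol and mitochondria, had 274, 242, 251 and 296 CPM at 6m and 219, 147, 136 and 114 CPM at 24m. Again no aged library reached the young range. The log2 fold change was -0.79 ± 0.18 (adjusted p = 0.00401 by edgeR), and the mean at 24m was 57.9% of that at 6m. Without 24m replicate 1 it was -0.98. The call was lost with the exonic length trend removed (-0.17, adjusted p = 0.15 by edgeR), with length and GC trends removed and the replicate block (-0.12, adjusted p = 0.215 by edgeR) and with the coding length trend removed (-0.46). The Gpx4 to Gpx1 count ratio was 4.38 to 4.68 at 6m. At 24m it was 4.49 in replicate 1 and 3.68 to 3.80 in the others, and the ages overlapped (log2 difference -0.20, exact permutation p = 0.114, two-sided, also 0.114 after adjustment over the 6 ratios, n = 4 per age). Without replicate 1 the difference was -0.26.

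Among the peroxiredoxins, Prdx5, found in mitochondria, peroxisomes and cytosol, fell most with TMM factors, but Prdx4 fell more with quantile normalization or with the trend over exonic length, coding length or GC content removed. Its level was 1069.5, 889, 913 and 1049.6 CPM at 6m and 756, 464, 465 and 361 CPM at 24m. The ages did not overlap, and the mean at 24m was 52.2% of that at 6m (log2 fold change -0.94 ± 0.20, adjusted p = 0.00288 by edgeR). Without 24m replicate 1 the change was -1.17. It was -0.58, just short of the threshold before rounding, with length and GC trends removed and the replicate block.

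Prdx4, the peroxiredoxin of the endoplasmic reticulum, was a low transcript with 48.3, 42.8, 41.8 and 48.5 CPM at 6m and 31.97, 24.7, 24.7 and 20.9 CPM at 24m. All aged libraries were lower, 24m replicate 1 included. Its mean at 24m was 56.4% of the young mean (log2 fold change -0.83 ± 0.13, adjusted p = 0.000569 by edgeR), or -0.93 without 24m replicate 1. Prdx4 was called lower in all 22 alternative analyses that gave it a value.

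Prdx1 and Prdx2 are both mainly cytosolic peroxiredoxins. Prdx2, the form abundant in neurons and red blood cells, had 572, 520.5, 527 and 609 CPM at 6m and 492, 343, 331 and 292 CPM at 24m, with no overlap. Its log2 fold change was -0.61 ± 0.15 (adjusted p = 0.00624 by edgeR), only just past the threshold, and it was -0.77 without 24m replicate 1. It was -0.57 without 6m replicate 4, -0.57 without 24m replicate 3 and -0.52 without 24m replicate 4, which each put it under the threshold, with an adjusted p of 0.0134 to 0.0228 in edgeR. The call was also lost with library totals (-0.40), with quantile normalization (-0.31) and with the coding length trend removed (-0.27).

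Prdx1 had 223, 206, 199.7 and 226 CPM at 6m and 205, 159.9, 156 and 142 CPM at 24m. Replicate 1 of 24m lay within the young range and the other three aged libraries lay below it. The log2 fold change was -0.36 ± 0.12 (adjusted p = 0.0199 by edgeR). Without 24m replicate 1 it was -0.46 (adjusted p = 0.000163 by edgeR). The adjusted p was 0.0532 without 6m replicate 1, 0.0535 without 6m replicate 4, 0.0561 without 24m replicate 2 and 0.0601 without 24m replicate 3, and between 0.03 and 0.0465 with each of the other three libraries left out. The change was -0.15 with library totals (adjusted p = 0.134 by edgeR) and -0.02 with the coding length trend removed (adjusted p = 0.857 by edgeR). With the GC trend removed it was -0.57 (adjusted p = 0.014 by edgeR), just under the fold threshold. The Prdx2 to Prdx1 ratio was 2.53 to 2.70 at 6m and 2.05 to 2.39 at 24m, without overlap (log2 difference -0.26, exact permutation p = 0.0286, the smallest this design gives, and 0.0572 after adjustment over 6 ratios, n = 4 per age), so that a difference in change between Prdx1 and Prdx2 did not pass after adjustment.

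Prdx3, the peroxiredoxin of the mitochondrial matrix, had 68.2, 68.6, 69.5 and 74.2 CPM at 6m and 68.8, 61.2, 60.7 and 60.2 CPM at 24m. Replicate 1 of 24m lay within the young range, and the log2 fold change of -0.16 ± 0.08 did not pass (adjusted p = 0.091 by edgeR). Without 24m replicate 1 it was -0.19 (adjusted p = 0.0159 by edgeR), and with library totals in place of TMM factors it was 0.06. With the exonic length trend removed the change turned to 0.44 (adjusted p = 0.00149 by edgeR). It was -0.32 with the GC trend removed (adjusted p = 0.0146 by edgeR) and -0.17 in DESeq2 (adjusted p = 0.0377 by DESeq2). The Prdx3 to Prdx1 ratio was 0.306 to 0.348 at 6m and 0.335 to 0.423 at 24m, with overlap (log2 difference 0.21, exact permutation p = 0.0571, adjusted over 6 ratios 0.0685, n = 4 per age). The Prdx5 to Prdx3 ratio, between 2 peroxiredoxins of mitochondria, was 12.9 to 15.7 at 6m and 5.99 to 10.98 at 24m (log2 difference -0.83, exact permutation p = 0.0286, adjusted over 6 ratios 0.0572, n = 4 per age).

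Prdx6, which uses glutathione in place of thioredoxin and is prominent in astrocytes, had 274, 267, 257 and 303 CPM at 6m and 295, 236, 229 and 201 CPM at 24m. In 24m replicate 1 it was at 107% of the young mean, and in the other three aged libraries at a mean of 80.6%. The log2 fold change of -0.20 ± 0.12 did not pass (adjusted p = 0.171 by edgeR). It was -0.29 without 24m replicate 1 (adjusted p = 0.00603 by edgeR), -0.12 without 24m replicate 4 (adjusted p = 0.374 by edgeR) and 0.02 with library totals. With length and GC trends removed and the replicate block it was called lower (-0.61, adjusted p = 0.024 by edgeR). The Prdx6 to Prdx1 ratio was 1.23 to 1.34 at 6m and 1.42 to 1.47 at 24m, without overlap (log2 difference 0.17, exact permutation p = 0.0286, adjusted over 6 ratios 0.0572, n = 4 per age). None of the 6 ratios passed 0.05 after adjustment, although 3 of them did not overlap between ages.

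**Figure D2:**
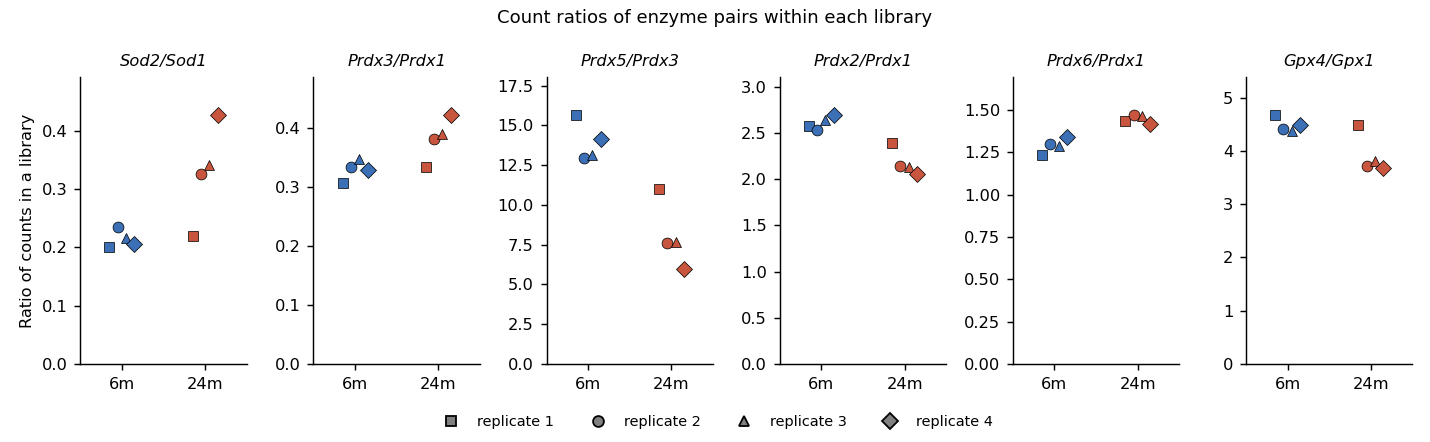
Ratio of the counts of 2 enzymes within each library (vertical axes, no unit, starting at 0) for 6 pairs, with 6m libraries in blue, 24m libraries in red and the symbol shape giving the replicate number. The ages do not overlap for Prdx5/Prdx3, Prdx2/Prdx1 and Prdx6/Prdx1, and 24m replicate 1 (square) lies nearer to the young libraries than the other aged ones for 5 of the 6 pairs.

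**Figure D3:**
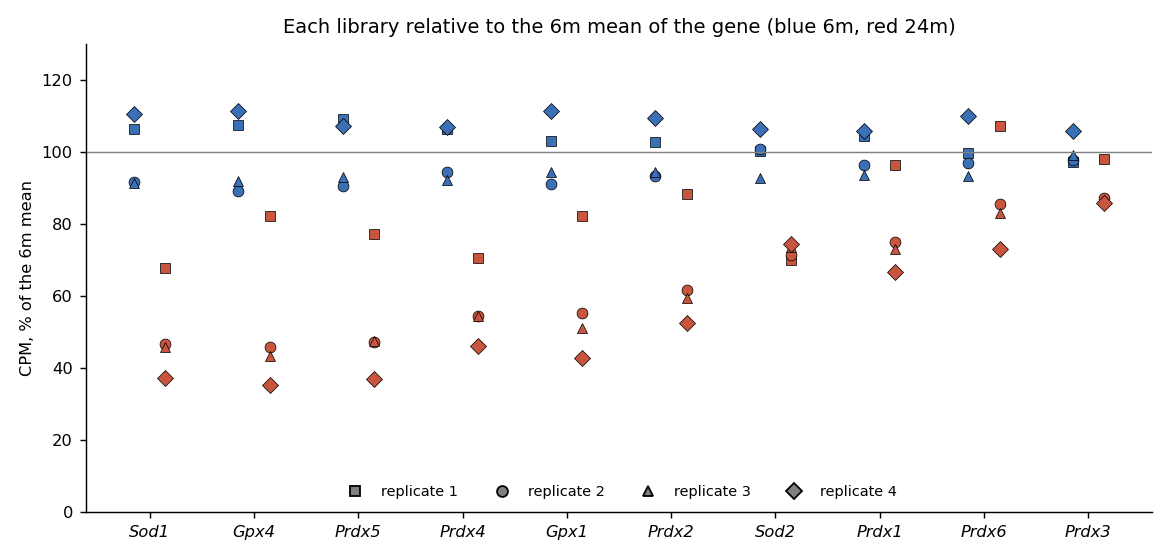
Level of each enzyme in each library as a percentage of its mean CPM at 6m (vertical axis, starting at 0), with genes ordered by fold change, 6m in blue, 24m in red and the symbol shape giving the replicate number. In 24m replicate 1 the values run from 67.9% for Sod1 to 107% for Prdx6, and for Sod2 it lies with the other aged libraries at 69.9%.

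Summed by family, the 6 peroxiredoxins had 2142 ± 164 CPM at 6m and 1370 ± 333 CPM at 24m. The 2 dismutases summed to 767 ± 68.1 and 409.9 ± 80.1 CPM, and the 2 glutathione peroxidases to 1459 ± 155 and 771 ± 295 CPM (SD, n = 4 each). In each of the 3 sums, every aged library was below every young one. These sums follow their most abundant members, Prdx5 and Prdx2, Sod1 and Gpx4.

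Levels of different genes were compared per kilobase of exonic sequence, using the union of all exons annotated in GENCODE M39. That release is not the reference named in the study's methods, so the exons used for counting may differ. On this scale Gpx4 led at 6m with 692 CPM per kilobase, followed by Prdx5 (390.3), Gpx1 (184), Prdx2 (123), Sod1 (73.1), Prdx1 (51.3), Prdx3 (42.8), Prdx6 (29.6), Prdx4 (11.6) and Sod2 (10.4). Of the neighbours in this order, only Prdx4 and Sod2 overlapped between libraries. At 24m the order was Gpx4, Prdx5, Gpx1, Prdx2, Prdx1, Prdx3, Sod1, Prdx6, Sod2 and Prdx4, so 5 of 10 genes kept their place, and of the neighbours only Prdx2 and Prdx1, and Prdx6 and Sod2, did not overlap. Per kilobase of coding sequence only 3 genes at 6m and 4 at 24m had the same place as per exonic kilobase. The exon union is much longer than the coding sequence in Sod2 (13039 and 666 bases), Prdx6 (9304 and 672) and Sod1 (8648 and 462).

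The change with age varied with gene length over the whole table. Across the genes tested, fold change and exonic length had a Spearman correlation of 0.42, a description of one comparison with genes as points, and shorter genes tended to have lower fold changes. The exonic lengths of the 10 genes run from 1445 bases in Gpx1 to 13039 in Sod2. With the length trend removed by a smoothed offset, 5 of the 10 and 17.1% of all genes were called lower. The 5 were Sod1 (-1.32), Sod2 (-0.94), Prdx4 (-0.73), Prdx5 (-0.59) and Prdx2 (-0.59). Gpx4 (-0.42) and Gpx1 (-0.17), which with Prdx3 have the shortest exonic sequence of the 10, were then under the threshold, and Prdx3 was higher at 24m (0.44, adjusted p = 0.00149 by edgeR). With the trend over coding length removed, only Prdx4 (-0.66), Prdx5 (-0.64) and Gpx4 (-0.62) were called, against 16.6% of all genes. The part of gene length in these results was not tested further. Library totals in place of TMM factors moved the median of all genes to 0.214. In that setting 10.4% of all genes were called lower and 32.6% higher, and 5 of the 10 were still called lower, Prdx2 (-0.40) being the one lost.

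**Figure D4:**
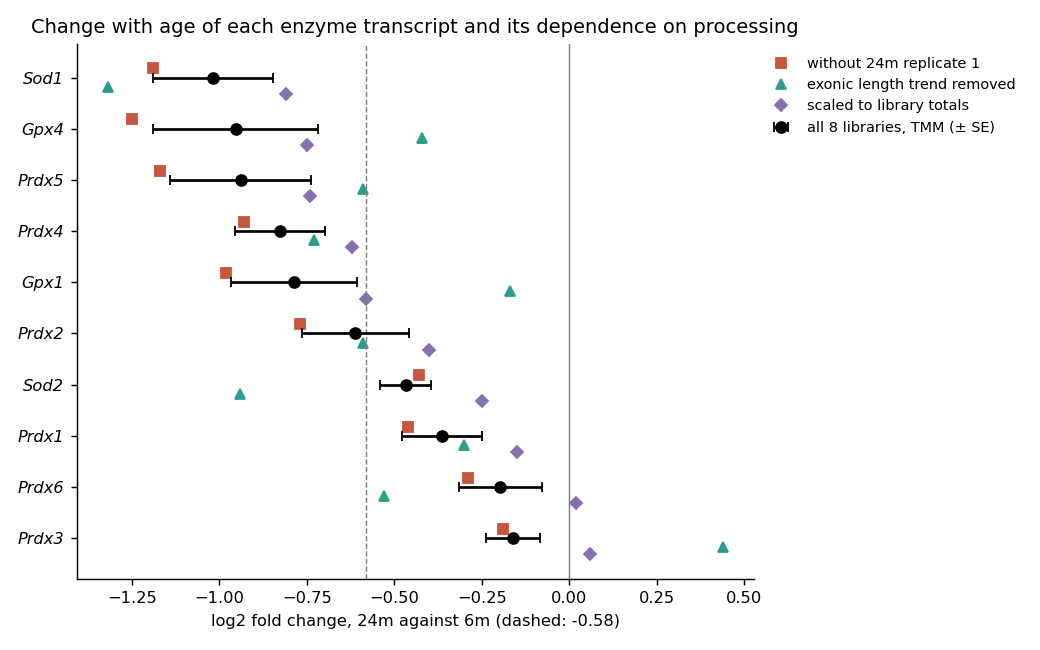
Log2 fold change of each enzyme, 24m against 6m (horizontal axis), with all 8 libraries and TMM factors (black, ± SE), without 24m replicate 1 (squares), with the exonic length trend removed (triangles) and with library totals (diamonds). The dashed line marks -0.58. Prdx3 lies above 0 with library totals and with the length trend removed, and Prdx6 with library totals, while the other 8 lie below 0 in all of the settings drawn.

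Reads could also come from elsewhere for some of these genes. Copies with at least 95% identity over 300 bases or more lie elsewhere in the genome for Sod2 (4), Prdx1 (2), Prdx2, Sod1 and Gpx4 (1 each). The Gpx4 copy covers 81.0% of its transcript at 99.7% identity. Coverage is 5.0 to 54.1% for Sod2, 34.9 to 53.0% for Prdx1, 42.0% for Prdx2 and 11.5% for Sod1. How reads with several matches were counted is not given in the sources used here, so the values of these genes are uncertain to that extent. On the opposite strand, exons of Trmt112 overlap Prdx5 over 732 bases, and Trmt112 fell as well (log2 fold change -1.01, adjusted p = 0.000951 by edgeR). Scaf4 overlaps Sod1 over 4217 bases and did not pass (0.06, adjusted p = 0.662 by edgeR). Acot9, opposite Prdx4, was at -0.38 and Rnaseh2a, opposite Prdx2, at -0.57, both under the fold threshold. Whether counting used the strand is not stated, so reads of such partners cannot be told apart.

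Some markers of other cell types were also called, where 18.3% of all genes were called lower and 25.3% higher. All 5 red blood cell genes were called lower, with a sum of 5426 to 7605 CPM at 6m and 1242 to 4156 CPM at 24m, and the highest aged value was again that of 24m replicate 1. Red blood cells are rich in Prdx2, and the part of blood RNA in the results was not tested. Of 8 markers each, 3 higher and 1 lower were called for neurons, 5 higher and 1 lower for astrocytes, 3 higher for microglia, 1 higher for oligodendrocytes, and 1 higher and 3 lower for endothelial cells. Of 5 choroid plexus markers, 3 were called higher. The marker sums at 6m and 24m were 2862 to 3790 and 2726 to 3806 CPM for astrocytes, 426 to 455 and 446 to 591 CPM for microglia, and 1709.7 to 1959.9 and 1867 to 2082 CPM for oligodendrocytes. They were 90.1 to 131 and 56.5 to 80.7 CPM for endothelial cells and 31.0 to 46.2 and 32.1 to 49.6 CPM for choroid plexus, so only the red blood cell, endothelial and neuronal sums did not overlap between ages.

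The genes that feed, repair and regulate these enzymes were called in both directions, at shares near those of all genes. Of 90 genes in 8 lists, 88 were tested, of which 18 were called higher, 17 lower and 53 neither. That is 20.5% higher and 19.3% lower, beside 25.3% and 18.3% of all genes. With library totals 27 were higher and 9 lower, and with the length trend removed 21 were higher and 8 lower. Among the other dismutase and glutathione peroxidase genes, 3 of 6 tested were called lower, and the list median was -0.56. Gpx8 was at -0.60 ± 0.20 (adjusted p = 0.0275 by edgeR) and Gpx2 at -1.01 ± 0.39 (adjusted p = 0.0429 by edgeR), the latter at under 1 CPM in every library. The ages overlapped in both.

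The thioredoxin system, which returns electrons to the peroxiredoxins, held called genes of both directions. Txn1, the cytosolic thioredoxin, had 90.5 to 100.7 CPM at 6m and 47.6, 52.3, 51.2 and 44.2 CPM at 24m (log2 fold change -0.98 ± 0.08, adjusted p = 3.28e-05 by edgeR). In it 24m replicate 1 did not stand apart. Its reductase Txnrd1, a selenoprotein, had 13.5, 16.9, 16.2 and 14.6 CPM at 6m and 28.9, 33.7, 37.1 and 42.0 CPM at 24m (1.21 ± 0.13, adjusted p = 8.17e-05 by edgeR). In all, 5 of the 11 genes rose and 2 fell, beside 25.3% and 18.3% of all genes, and the list median was 0.50. The genes called beside those 2 were named after their values were seen: the mitochondrial thioredoxin Txn2 fell (-0.76), and the sestrins Sesn1 (0.93), Sesn2 (1.14) and Sesn3 (0.72), which are stress-induced, and the thioredoxin inhibitor Txnip (0.82) rose.

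Among 17 genes of glutathione synthesis, reduction and use, 6 fell and 1 rose, beside 18.3% and 25.3% of all genes. The list median was -0.40. The mitochondrial glutaredoxin Glrx5, which serves iron-sulfur cluster assembly, was at -1.12 ± 0.18 (adjusted p = 0.000616 by edgeR). The gene called higher was Gclc, the catalytic subunit of the rate-limiting enzyme of glutathione synthesis, with 14.1 to 22.0 CPM at 6m and 32.98 to 44.6 CPM at 24m (1.02 ± 0.16, adjusted p = 0.000541 by edgeR).

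For catalase and the metal supply of the dismutases, 1 of 6 genes was called higher and 2 lower, beside 25.3% and 18.3% of all genes. Catalase itself (Cat), the hydrogen peroxide enzyme of peroxisomes, had 23.8, 27.2, 25.8 and 22.3 CPM at 6m and 22.5, 37.1, 38.7 and 44.2 CPM at 24m. The 24m replicate 1 lay within the young range, and the change of 0.52 ± 0.18 was under the fold threshold (adjusted p = 0.0291 by edgeR). The copper chaperone Atox1 was at -1.21 ± 0.18 (adjusted p = 0.000371 by edgeR) and Slc39a14, a transporter of manganese, zinc and iron, at 1.86 ± 0.13 (adjusted p = 1.94e-05 by edgeR).

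Gpx1 and Gpx4 need selenocysteine, whose machinery had 3 of 10 genes called higher and 7 neither. Of all genes, 25.3% were called higher and 18.3% lower. Secisbp2l, a relative of the protein that binds the selenocysteine insertion element, rose from 5.55 to 7.44 CPM at 6m to 13.7 to 43.6 CPM at 24m (2.11 ± 0.29, adjusted p = 0.000307 by edgeR). Lrp8, a receptor for the selenium carrier Selenop, was at 1.10 ± 0.26 (adjusted p = 0.00442 by edgeR). The ages overlapped in Lrp8, with 7.41 CPM in 24m replicate 1 and up to 8.01 CPM at 6m. Of 11 other selenoprotein genes 4 were called lower and 3 higher. Selenow, a small selenoprotein abundant in brain, had 1998 to 2655 CPM at 6m and 706 to 1589 CPM at 24m (-1.12 ± 0.23, adjusted p = 0.0022 by edgeR), with the highest aged value in 24m replicate 1. Selenoi, an ethanolamine phosphotransferase, was at 1.75 ± 0.27 (adjusted p = 0.000495 by edgeR).

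**Figure D5:**
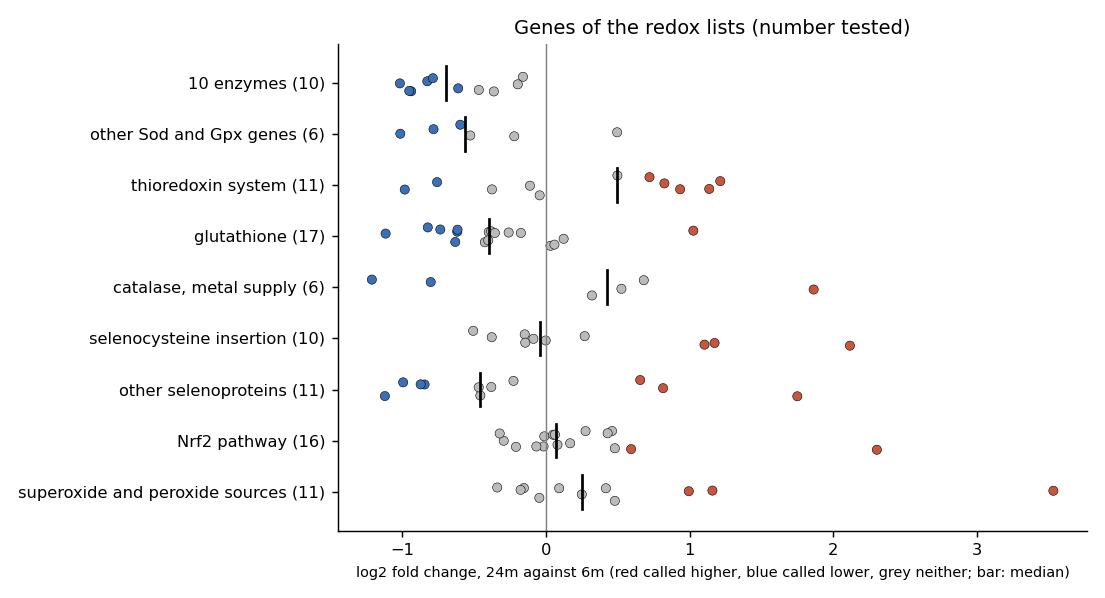
Log2 fold change, 24m against 6m (horizontal axis), of each tested gene of the 10 enzymes and of 8 lists of related genes, with the number tested in parentheses and a black bar at the median of each list. Red points were called higher, blue points lower and grey points neither, and only the 10 enzymes lack a point above 0 with TMM factors. Among the other dismutase and glutathione peroxidase genes, the only point above 0 is Gpx6 (0.49, adjusted p = 0.0743 by edgeR). Its mean was 0.65 CPM at 6m and 0.92 CPM at 24m.

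Nrf2 (Nfe2l2) is the transcription factor that induces many antioxidant genes through the antioxidant response element. Its own transcript had 8.05 to 9.59 CPM at 6m and 10.6 to 14.3 CPM at 24m, without overlap, and its change of 0.46 ± 0.12 was under the fold threshold (adjusted p = 0.00708 by edgeR). Of 16 genes of the pathway 2 rose and 14 did neither, beside 25.3% of all genes called higher and 18.3% lower. The list median was 0.07. The 2 were Bach1, a repressor at these elements (2.30 ± 0.38, adjusted p = 0.000731 by edgeR), and Mafk, a small Maf partner (0.59 ± 0.13, adjusted p = 0.00338 by edgeR). Bach1 was low, at 0.409 to 0.78 CPM at 6m and 1.18 to 4.29 CPM at 24m. Among 11 tested genes that make superoxide or hydrogen peroxide, 3 were called higher and 8 neither. Ero1a, the oxidase of the endoplasmic reticulum whose peroxide Prdx4 can use, was at 0.99 ± 0.18 (adjusted p = 0.00105 by edgeR). Cybb, the catalytic subunit of the phagocyte oxidase, was at 3.53 ± 0.54 (adjusted p = 0.000512 by edgeR), at under 1 CPM in every library.

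The core of the antioxidant response element, TGACNNNGC, was searched on both strands in RefSeq promoter windows of 300 bases (build GRCm38.p6), which were matched for 9 of the 10 genes, Prdx6 being the one without. It was found in the windows of Prdx1 (chr4:116685349-116685648, forward strand) and Sod1 (chr16:90220512-90220811, forward strand), and in 12.4% of all 32851 windows. Both matches are on the opposite strand and are shown here with 10 bases on each side, 5′ to 3′ on the gene's strand, with the match in capitals.

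Prdx1 promoter: cagggaaagcGCTGAGTCAtcccccgtag
Sod1 promoter: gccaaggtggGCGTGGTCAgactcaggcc

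The capitals begin at position -133 from the annotated start in Prdx1 and at -56 in Sod1. The Prdx1 match overlaps the AP-1 motif TGAGTCA, a form of TGANTCA, and the Sod1 match does not overlap that motif. Both genes were lower at 24m, Sod1 past the fold threshold and Prdx1 under it, but all 10 fitted changes were below 0. The other called genes, Gpx4, Prdx5, Prdx4, Gpx1 and Prdx2, had no match. A tie between the motif and the change was not tested.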

How the data were processed

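Per the methods and the labels, the authors took poly(A) RNA from 8 mouse brains (dissected hemispheres, titled whole brain), made directional libraries, sequenced them as paired ends, trimmed with Trim Galore 0.4.11, aligned to GRCm39 with HISAT2 2.1.0 and counted reads per Ensembl gene with featureCounts. The strand and multimapping settings are not given in the sources used here. The deposited table holds raw counts of 22430 genes, not normalized and with no replicates pooled, and 22281 genes matched GENCODE M39.

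Genes above 5 counts in 4 or more libraries (16730) were tested for age by edgeR 4.0.16 in R 4.3.3 (TMM factors, quasi-likelihood), with Benjamini-Hochberg adjustment over all of them. Calls used an adjusted p threshold of 0.05 and a log2 threshold of 0.58 in either direction. CPM are TMM-scaled. Ratios were tested by exact permutation over 70 assignments. The p-values measure the spread between single animals. Library pairs of one age differed beyond sampling noise, so each counted as 1 replicate.

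The genes and lists were chosen with earlier results of these data known. By rule, all 10 enzymes were named, then per list the called gene with the largest and the one with the smallest change, and Cat, Ccs, Nfe2l2 and Txnrd1. On simulated data for 24m against 6m over 16730 genes, edgeR recovered 74.5% of the 200 genes given a log2 change of 1, and called 13 unchanged genes. Alternatives were other scalings, filters and thresholds, DESeq2 1.42.0, limma 3.58.1 (voom), length and GC offsets (loess span 0.3), the replicate block and each library left out. Gene positions came from GENCODE, promoters from RefSeq, and sequences were read by script with Python 3.11.15.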

Additional observations from a re-analysis of the deposited data

Results flagged for a closer look

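Of 32 groups of 4 values checked (the 10 enzymes and 6 ratios at each age), 2 held a library far from the other three, where chance gives about 1 in 20 such groups. Both were in 24m replicate 1. Prdx3 was at 68.8 CPM in that library and at 60.2 to 61.2 CPM in the other aged libraries. The Gpx4 to Gpx1 count ratio was 4.49 in that library and 3.68 to 3.80 in the others.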

How the results depend on the processing

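The count of enzymes called lower at 24m was 6, and 5 to 6 when each library was left out in turn. It was 3 with the coding length trend removed, an alternative chosen after seeing the data. None of the 10 was called higher in any of the alternatives run, DESeq2 and limma-voom included. Prdx3 was above 0 with library totals (0.06), with the exonic length trend removed (0.44), with length and GC trends removed together with the replicate block (0.39), with the length trend removed and without 24m replicate 1 (0.49, chosen after seeing the data) and with the coding length trend removed (0.05). Prdx6 was above 0 with library totals (0.02) and with the coding length trend removed (0.08). The causes were not tested. Prdx4 was called in 22 of 22 alternatives, Prdx5 and Sod1 in 21, Gpx4 in 20, Gpx1 in 18, Prdx2 in 16, Sod2 in 4, Prdx6 in 2, and Prdx1 and Prdx3 in 0.

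Over all genes, 3058 were called lower, 1746 with library totals and 4999 with no fold threshold, and 2615 to 3592 with a library left out. Genes called higher were 4237, 5449 with library totals, 5479 with no fold threshold, and 3825 to 4673 with a library left out. In the 8 lists, 17 genes were called lower, 9 with library totals, 8 with the length trend removed, 10 with length and GC trends removed and the replicate block, and 30 with no fold threshold, and 12 to 21 with a library left out. The 18 called higher were 14 with quantile normalization, 27 with library totals or with no fold threshold, 21 with the length trend removed, with or without the GC trend and block, and 16 to 20 with a library left out. The log2 differences of ratios ranged, with a library left out, from 0.44 to 0.76 for Sod2/Sod1, 0.16 to 0.28 for Prdx3/Prdx1, -0.99 to -0.70 for Prdx5/Prdx3, -0.31 to -0.23 for Prdx2/Prdx1, 0.14 to 0.19 for Prdx6/Prdx1 and -0.26 to -0.17 for Gpx4/Gpx1. With coding length, 3 and 4 of 10 genes kept their place in the order of levels at 6m and 24m.

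Replicate numbers did not pair the libraries: same-numbered deviations correlated at 0.271, 0.143, 0.0778 and -0.348, and only 6m replicate 1 matched its own number best. With the replicate block, 6 enzymes were called lower, as were 3130 genes in all, with 4112 higher. In ratios, the paired sign-flip p cannot go below 0.125. Depth did not limit the enzymes, whose lowest count was 1821.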
